A study of Mus musculus with 4 samples.

Results

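The interferon regulatory factors other than Irf4 were examined in mouse bone marrow-derived macrophages with and without the cytokine IL-4 and with and without the transcription factor Stat6. The 7 genes were Irf1, Irf2, Irf3, Irf5, Irf7, Irf8 and Irf9, taken by gene symbol from the platform annotation out of 19938 genes on the array. Each was read from its probeset with exactly 1 symbol, or from the brighter one on average where a gene had several, which was the case for Irf1 with 2 probesets. Macrophages were grown for 7 days with 10% L929 cell supernatant, a source of M-CSF, then replated and kept for 24 h with IL-4 or in plain medium and sorted on F4/80. The groups were macrophages from 4get/Stat6-/- mice with IL-4, macrophages from 4get/Stat6-/- mice in medium, BALB/c wild-type macrophages with IL-4 and BALB/c wild-type macrophages in medium. Every group was a single array. The 4get allele, a reporter of IL-4 transcription, was named for the Stat6-deficient mice and not for the wild type, and the strain background of the Stat6-deficient mice is not stated. In the genotype comparison Stat6, the 4get allele and any difference in background cannot be told apart. For the IL-4 dose of 10, the unit is µg/mL in one place of the labels and mg/mL in another, and the labels name neither the number, age nor sex of the mice behind an array.

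Interferon regulatory factors are transcription factors with a conserved DNA-binding domain that reads GAAA repeats in the interferon-stimulated response element of antiviral genes. In macrophages Irf3 and Irf7 are activated by kinases downstream of sensors of microbial nucleic acids and switch on type I interferon genes. Irf9 is part of the complex ISGF3 that carries the interferon signal to its target genes, Irf1 and Irf5 serve inflammatory and interferon-gamma responses, Irf2 competes with Irf1 for binding, and Irf8 sets myeloid identity together with the factor PU.1. IL-4 acts through Stat6 and induces Irf4, the family member best known from alternative activation.

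Values are log2 signals after RMA. This procedure removes background, gives the probes of all arrays one distribution and joins those of each probeset into a single value. The joined values did not share one distribution, with array medians from 2.23 in wild type in medium to 2.29 in Stat6-/- in medium. A gene is said to have risen or fallen where its log2 difference reached 1, that is 2-fold, and the higher array reached a floor of 2.52, the median signal of the probesets with 1 symbol. With 1 array a group there was no spread between replicates, no test and no p-value, and neighbouring levels cannot be ranked beyond an error. The signal reads RNA from the whole sorted culture, so that fewer cells of a type and less RNA per cell cannot be told apart, and it says nothing of the phosphorylation that activates several of these proteins. All 7 genes lay above the floor on all 4 arrays. Levels are compared between arrays for 1 gene at a time, since the signals of different probesets are not on a common scale.

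Stat6 itself read 4.25 and 4.54 in Stat6-/- cells with IL-4 and in medium, against 6.68 and 7.34 in wild type with and without IL-4, in the direction of the labels. Of 15 macrophage markers matched on the array, 13 or 14 were above the floor on each array. Of 6 fibroblast markers 3 were above the floor on every array, with signals of at most 3.41. At most 2 of 9 neutrophil markers were above it on any array. The same held for at most 1 of 5 B cell, 1 of 5 T cell and 1 of 4 NK cell markers. Among 9 dendritic cell markers, which bear on Irf8 because dendritic cells also need it, 7 stayed between 1.21 and 2.24 on all arrays, under the floor, and Zbtb46 was close to it. Itgax, which encodes CD11c and is also expressed by macrophages, was the exception, at 4.27 and 3.49 in Stat6-/- cells with IL-4 and in medium and 9.83 and 6.99 in wild type with and without IL-4. Its part in the results below was not tested.

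The promoters were read for the DNA elements through which interferon and IL-4 signals are known to act. RefSeq start sites were available for 7 of 7 genes, with 10 start sites in all, and the 250 bases before each were searched on both strands for TTCNNNGAA, the GAS element of interferon-gamma responses, TTC and GAA 4 bases apart, the wider spacing preferred by STAT6, GAAA repeated after any 2 bases, an interferon-stimulated response element, and GGAA followed after any 2 bases by GAAA, a composite site for PU.1 with an interferon regulatory factor. Of the 10 windows 3 held a match, at the more upstream start site of Irf1, at that of Irf2 and at the more upstream one of Irf8. They are shown 5′ to 3′ on the plus strand of GRCm38.p6, with the matches in capitals, because Irf8 is the gene that passed the 2-fold rule and the other 2 are the remaining windows with a match. The windows are chr8:120736108-120736357 for Irf8, chr11:53769764-53770013 for Irf1 and chr8:46739495-46739744 for Irf2.
Irf8: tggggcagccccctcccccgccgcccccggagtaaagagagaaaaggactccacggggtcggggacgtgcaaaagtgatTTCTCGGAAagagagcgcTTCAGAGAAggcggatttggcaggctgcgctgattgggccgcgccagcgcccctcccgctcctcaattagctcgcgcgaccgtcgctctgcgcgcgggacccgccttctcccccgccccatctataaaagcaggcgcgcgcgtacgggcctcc
Irf1: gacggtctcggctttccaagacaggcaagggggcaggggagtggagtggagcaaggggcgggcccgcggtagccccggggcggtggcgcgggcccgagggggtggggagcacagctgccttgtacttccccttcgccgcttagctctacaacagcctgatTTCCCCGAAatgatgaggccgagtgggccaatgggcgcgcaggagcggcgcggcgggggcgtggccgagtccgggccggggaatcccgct
Irf2: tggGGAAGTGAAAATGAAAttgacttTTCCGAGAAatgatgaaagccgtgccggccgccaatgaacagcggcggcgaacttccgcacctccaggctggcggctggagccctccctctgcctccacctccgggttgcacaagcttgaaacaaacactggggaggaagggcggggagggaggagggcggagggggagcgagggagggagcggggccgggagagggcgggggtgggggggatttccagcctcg

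Irf8 held 2 GAS elements, TTCTCGGAA at -171 to -163 and TTCAGAGAA at -153 to -145, counted from the base just before the start site as -1. Irf1 held TTCCCCGAA at -90 to -82. Irf2 held TTCCGAGAA at -224 to -216, and further upstream the composite site GGAAGTGAAA at -247 to -238 ran into the response element GAAAATGAAA at -241 to -232, so that the capitals of both form 1 stretch. The wider spacing was in 0 of the 10 windows. Among 32544 RefSeq windows of the same length, 7.04% held the GAS letters, 5.89% the wider spacing, 2.98% the response element and 2.31% the composite site. These are matches of letters in short windows and say nothing of binding.

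**Figure D1:**
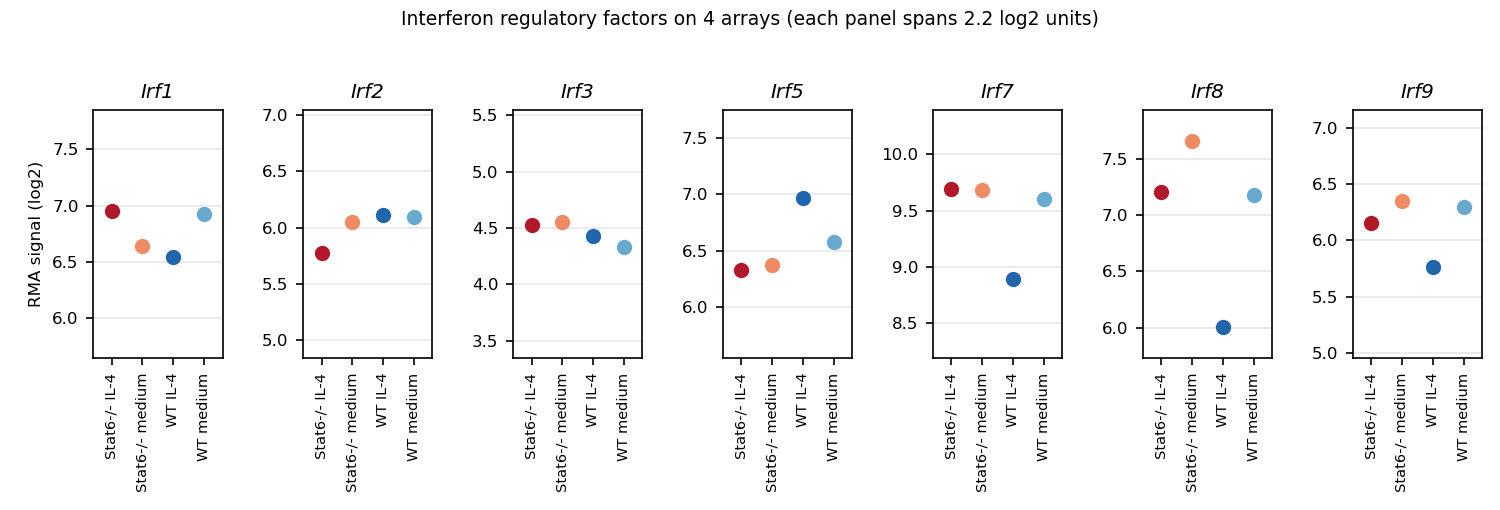
RMA signal on the log2 scale of the 7 interferon regulatory factor genes, 1 panel a gene and 1 point an array, with panels of equal span but different offsets. Irf1, Irf7, Irf8 and Irf9 sit lowest and Irf2 and Irf5 highest in wild type with IL-4, while Irf3 spans 0.22 over the 4 arrays.

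Irf8, the myeloid lineage factor, had the widest range of the 7 genes, 1.65 over the 4 arrays. Its signal was 7.20 in Stat6-/- with IL-4, 7.66 in Stat6-/- in medium, 6.004 in IL-4-treated wild type and 7.17 in wild type in medium. The wild-type array with IL-4 thus lay 1.17 under the lowest of the other arrays, which spanned 0.48 among themselves. In wild type Irf8 fell with IL-4 by 1.17, a signal 2.25-fold lower, and it was 1 of 7 interferon regulatory factors to pass the rule in that comparison, where 9.74% of 10282 genes passed in either direction and 6.78% fell. An IL-4 difference at least as large, in either direction, was seen in 6.40% of genes. With the dependence on signal intensity removed, the difference of Irf8 was -0.9999, just short of the rule. On the same array 4 of 14 macrophage markers had fallen too, Cd14 (-2.74), Fcgr1 (-1.76), Mertk (-1.36) and Adgre1 (-1.21), the gene of the F4/80 protein used for sorting. The 14 had a median difference of -0.55, with 13 lower and 1, Mrc1, higher by 0.70. The median over all genes was -0.11, and -0.20 with the floor raised to the 75th percentile, 4.65. These markers, most of them bright, were not recalculated with the intensity trend removed. Cd68, Msr1 and Itgam differed by -0.11, -0.22 and -0.26. The summed macrophage signal was 13.24 in wild type with IL-4 and 13.62 to 13.78 on the other arrays, and its part in the Irf8 result was not tested.

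Irf8 was also lower with IL-4 where Stat6 was missing, by 0.45 on the log2 scale, a difference under the rule that 6.61% of 10410 genes matched or exceeded downwards. In Stat6-/- cells it was higher than in wild type by 1.20 with IL-4, which passed the rule, and by 0.48 in medium, which did not. The IL-4 effects were -0.45 in Stat6-/- and -1.17 in wild type, and their difference, wild type minus Stat6-/-, was -0.71, under the rule. Both calls of Irf8 use the wild-type array with IL-4.

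Irf7, the interferon-inducible amplifier of type I interferon production, read 9.69 in Stat6-/- with IL-4, 9.68 in Stat6-/- in medium, 8.89 in IL-4-treated wild type and 9.60 in wild type in medium. The Stat6-/- arrays and wild type in medium lay within 0.09 of each other, and wild type with IL-4 was 0.71 under the lowest of them. The IL-4 difference of Irf7 was 0.01 in Stat6-/- and -0.71 in wild type, a signal 1.64-fold lower there, and the signal with IL-4 was 1.74-fold higher in Stat6-/- than in wild type. None of these reached 2-fold, and 20.5% of genes had a wild-type IL-4 difference at least as large.

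Irf9, the DNA-binding part of ISGF3, read 6.16 in Stat6-/- with IL-4, 6.35 in Stat6-/- in medium, 5.76 in IL-4-treated wild type and 6.29 in wild type in medium. Its lowest array was again wild type with IL-4, 0.39 under the next, while the other arrays spanned 0.20. The IL-4 difference was -0.20 in Stat6-/- and -0.53 in wild type, which is not past the rule. In all, 32.4% of genes had a wild-type difference at least that large. Stat2, the partner of Irf9 and named here after its values were seen, read 7.49 and 7.65 in Stat6-/- with and without IL-4, and 6.61 and 7.47 in wild type treated alike.

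Irf1, the interferon-gamma-induced activator, read 6.95 in Stat6-/- with IL-4, 6.64 in Stat6-/- in medium, 6.55 in IL-4-treated wild type and 6.93 in wild type in medium. The arrays paired across genotype and culture, with Stat6-/- with IL-4 close to wild type in medium and Stat6-/- in medium close to wild type with IL-4. The IL-4 difference was 0.31 in Stat6-/- and -0.38 in wild type, and the difference of both effects, wild type minus Stat6-/-, was -0.69. A dimmer second probeset of Irf1 read 3.29 and 3.04 in Stat6-/- with and without IL-4, and 3.37 and 3.15 in wild type with and without IL-4, with a wild-type IL-4 difference of 0.22, so that the probesets disagree in sign and the direction in wild type depends on which one is read. On that probeset the difference of both effects was -0.03.

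Irf5, which drives inflammatory cytokine genes in classically activated macrophages, read 6.33 in Stat6-/- with IL-4, 6.37 in Stat6-/- in medium, 6.97 in IL-4-treated wild type and 6.58 in wild type in medium. Wild type with IL-4 was its highest array, 0.39 above the next, and the other arrays spanned 0.25. With IL-4 the signal was 1.56-fold lower in Stat6-/- than in wild type, and in medium the difference was -0.21. The array that was lowest for Irf7, Irf8 and Irf9 was thus the highest for Irf5, with no difference past the rule.

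Irf2 and Irf3 varied least. Irf2, the antagonist of Irf1, read 5.77 in Stat6-/- with IL-4, 6.05 in Stat6-/- in medium, 6.11 in IL-4-treated wild type and 6.10 in wild type in medium. Its wild-type IL-4 difference of 0.01 was smaller in size than that of 97.7% of genes. Irf3, which is present in resting cells and is activated by phosphorylation, read 4.53 in Stat6-/- with IL-4, 4.56 in Stat6-/- in medium, 4.43 in IL-4-treated wild type and 4.34 in wild type in medium, within 0.22 of each other.

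**Figure D2:**
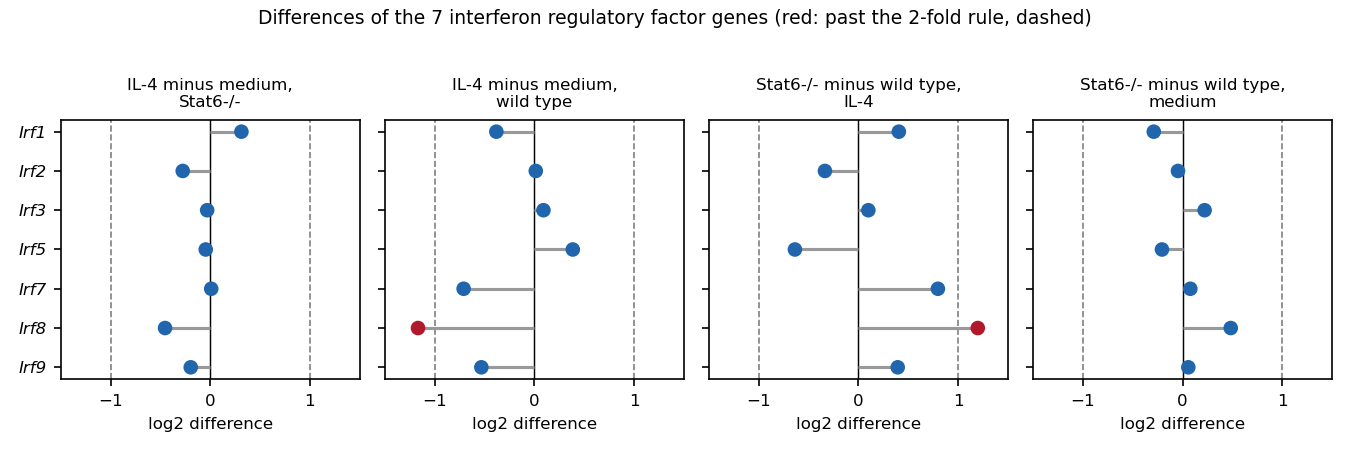
Log2 differences of the 7 genes in the 4 comparisons of a pair of arrays, with the 2-fold rule as dashed lines. Irf8 passes it in wild type with IL-4 against medium (-1.17) and in Stat6-/- against wild type with IL-4 (1.20), and the other points lie inside.

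Over the family, wild type with IL-4 was the lowest array for 4 of 7 genes, Irf1, Irf7, Irf8 and Irf9, as it was for 35.3% of 10798 genes above the floor. For 3 of these, Irf7, Irf8 and Irf9, it lay apart by more than the range of the other arrays, as it did for 15.5% of genes. It was the highest array for Irf2 and Irf5, against 28.2% of genes, and stood apart upwards for Irf5, against 11.2%. The gap to the next array was 0.09 for Irf1 and 0.01 for Irf2. On the dimmer Irf1 probeset wild type with IL-4 was the highest array, at 3.37 against 3.29 in Stat6-/- with IL-4. The other arrays are of 3 different conditions and are not replicates. The median IL-4 difference of the 7 genes was -0.05 in Stat6-/- and -0.38 in wild type, beside medians over all genes of -0.05 in Stat6-/- and -0.11 in wild type. Quantile normalization applied again moved the all-gene median in wild type to 0.02 and the difference of Irf8 stayed past the rule.

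In Stat6-/- 0 of 7 genes passed the rule with IL-4, where 0.355% of 10410 genes did. In medium 0 of 7 passed between Stat6-/- and wild type, with 1.45% of 10299 genes past it. With IL-4 1 of 7, Irf8, was higher in Stat6-/-, with 8.84% of 10433 genes past the rule in either direction and 4.01% upwards. The difference of IL-4 effects passed for 0 of 7 genes and for 8.97% of 10798. At a looser rule of 1.5-fold, Irf7 and Irf8 passed in wild type with IL-4, where 28.3% of genes did, and Irf5, Irf7 and Irf8 passed between Stat6-/- and wild type with IL-4, where 23% did. Irf1, Irf7 and Irf8 passed it in the difference of IL-4 effects, where 26.2% did, but Irf1 did not with its probesets averaged, at -0.36. At the same rule 0 of 7 passed with IL-4 in Stat6-/- or between genotypes in medium, where 5.73% and 10.8% did. Irf4, the family member left out here, rose by 2.08 with IL-4 in wild type, with a signal of 4.83 there and between 2.57 and 2.75 on the other arrays.

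**Figure D3:**
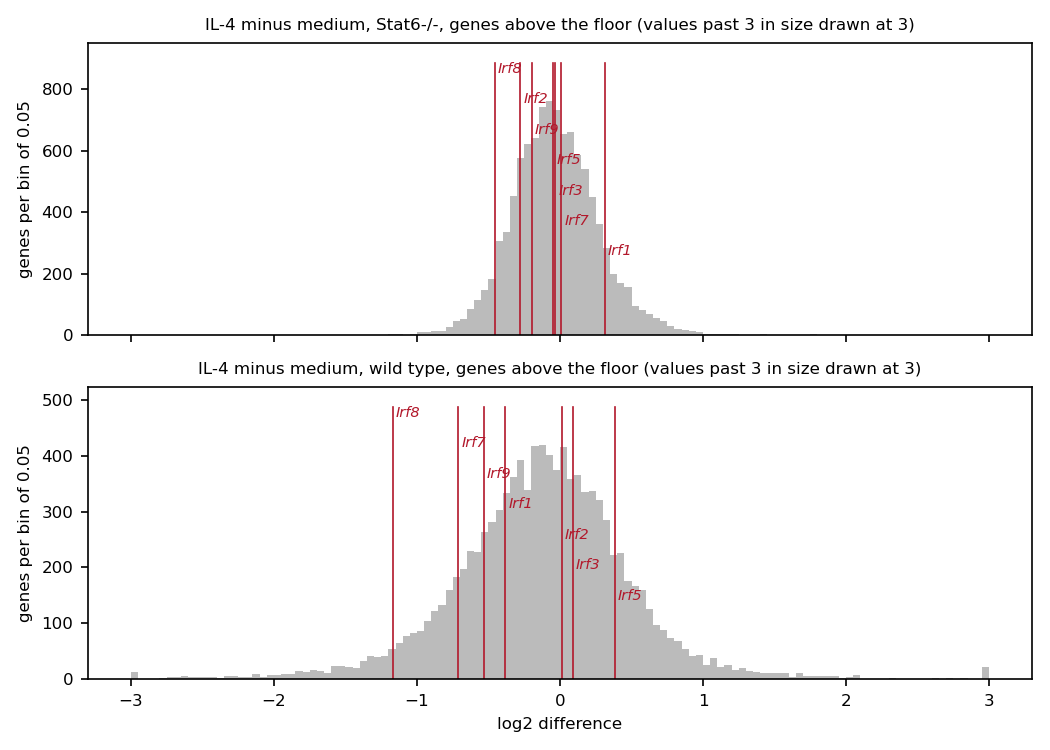
Numbers of genes above the floor by their log2 difference of IL-4 against medium, Stat6-/- in the upper and wild type in the lower panel, with the 7 interferon regulatory factors as lines. The wild-type distribution is the broader one, and Irf8 at -1.17 lies in its lower tail.

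The 3 genes whose 4 centred values lay closest to those of Irf8 among 10798 genes were Plod1, a collagen lysyl hydroxylase, at a Euclidean distance of 0.089, Ubxn7, an adaptor of the p97 segregase, at 0.098, and Mr1, the antigen-presenting molecule of MAIT cells, at 0.103. Plod1 read 7.43 in Stat6-/- with IL-4, 7.90 in Stat6-/- in medium, 6.32 in IL-4-treated wild type and 7.50 in wild type in medium. The likeness is over 4 arrays.

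The genes around the factors were then read by role, from 9 lists. The counts stand beside the shares of all genes that fell with IL-4 in wild type (6.78%), passed the rule with IL-4 in Stat6-/- (0.355%) or were higher in Stat6-/- than in wild type with IL-4 (4.01%). Upstream, 5 of 18 sensors and adaptors above the floor fell with IL-4 in wild type, where 6.78% of all genes fell, and 0 rose, with a median of -0.66 against -0.11 over all genes. Tlr7 and Tlr9, endosomal receptors for RNA and DNA that signal to Irf7 and Irf5, had differences of -2.55 and -1.46. Tlr7 read 7.59 and 7.81 in Stat6-/- with and without IL-4, and 4.99 and 7.54 in wild type with and without IL-4. Ddx58, the cytosolic RNA sensor RIG-I, fell by 1.27. Tlr3, a receptor for double-stranded RNA, fell by at least 2.43-fold to 2.44, under the floor. Ikbke, a kinase that phosphorylates Irf3 and Irf7, fell by 1.02 and was named after its values were seen as the last of the 5, while its relative Tbk1 differed by -0.35. In Stat6-/- 0 of 18 passed the rule, which 0.355% of all genes passed, with a median of -0.20 against -0.05 over all genes.

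The interferon genes themselves gave little signal. Ifnb1, Ifna2, Ifna4 and Ifng, 4 of 7 genes of the interferon list, were under the floor on all arrays, between 1.17 and 1.83. Ifna5 read 3.28 and 3.41 in Stat6-/- with and without IL-4, and 2.92 and 3.19 in wild type with and without IL-4, and belongs to a family of near-identical genes that the array can fail to separate. Il15, an interferon-induced cytokine kept in that list, fell by 2.03 in wild type, to 3.46 with IL-4 against 5.49 in medium. Of 8 interferon receptor and JAK-STAT genes, Ifnar2, a chain of the type I interferon receptor, fell by 1.34 in wild type and was the 1 past the rule. Ifnar2 read 8.30 and 8.47 in Stat6-/- with and without IL-4, and 7.18 and 8.52 in wild type with and without IL-4. Jak2, which signals from the interferon-gamma receptor, was lower in Stat6-/- than in wild type with IL-4 by 1.34, at 5.36 against 6.70.

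**Figure D4:**
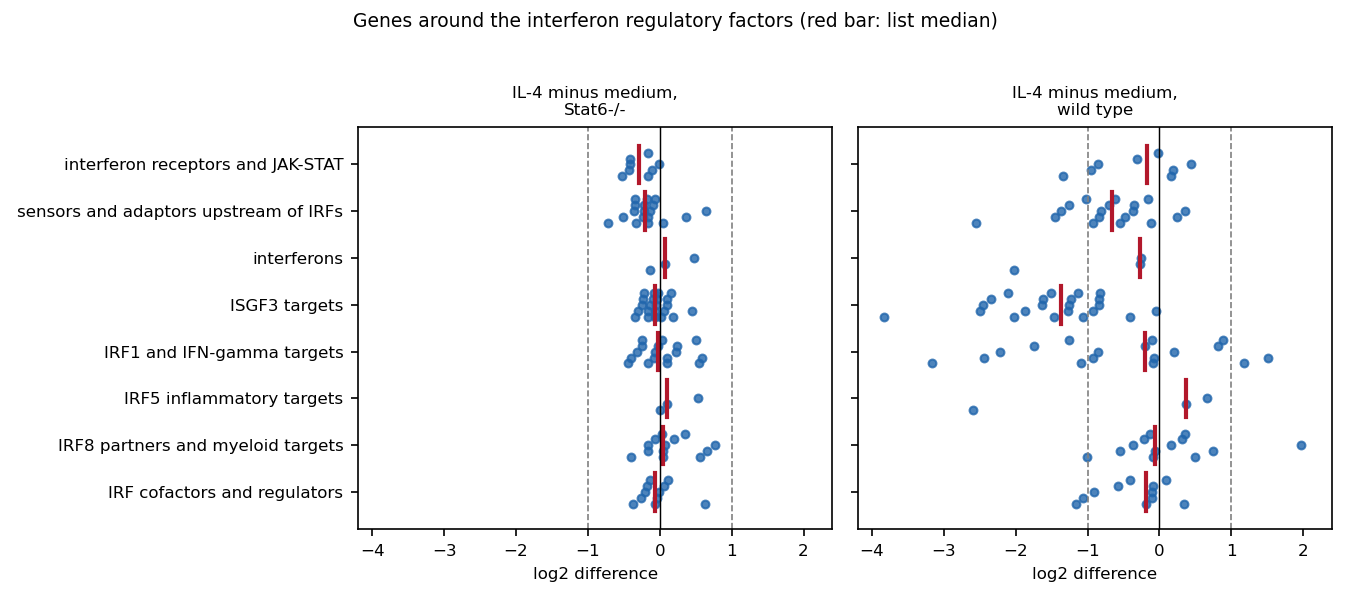
Log2 differences of IL-4 against medium for the genes above the floor in 8 lists around the interferon regulatory factors, Stat6-/- left and wild type right, with list medians as bars. The ISGF3 targets lie below 0 in wild type, with a median of -1.37, and around 0 in Stat6-/-.

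Downstream, 16 of 22 targets of ISGF3, the complex that contains Irf9, fell with IL-4 in wild type, where 6.78% of all genes fell, and 0 rose. Their median was -1.37, against -0.11 over all genes. In Stat6-/- 0 of 22 passed the rule, which 0.355% of all genes passed, and the median was -0.06 against -0.05 over all genes. With IL-4, 12 of 22 were higher in Stat6-/- than in wild type, as were 4.01% of all genes, with a median of 1.03. The 3 RNA sensors Ddx58, Ifih1 and Dhx58 stand in both this list and the upstream one. Irf9, at -0.53, and Irf7, at -0.71, which is itself a target of ISGF3, had smaller wild-type differences than the median of these targets. That decline of interferon-stimulated genes was known from these arrays when the list was drawn up, so it is no separate support.

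Of 17 Irf1 and interferon-gamma targets above the floor, 6 fell and 2 rose in wild type with IL-4, where 9.74% of all genes passed the rule and 6.78% fell. Their median of -0.19 lay close to that of all genes, -0.11, and their differences ran from -3.17 to 1.51. Gbp7, a guanylate-binding protein, and Iigp1, an immunity-related GTPase, both of the defence against intracellular microbes, had differences of -2.44 and -2.22. Gbp7 read 7.18 and 7.34 in Stat6-/- with and without IL-4, and 4.41 and 6.85 in wild type with and without IL-4. The 2 that rose were Socs1, an inhibitor of cytokine signalling that IL-4 also induces, by 1.51, and Psmb10, an immunoproteasome subunit, by 1.17. Both were outside the naming rule for this comparison and chosen after their values were seen. Without Stat6, the IL-4 difference was 0.59 for Psmb10 and -0.25 for Socs1, neither past the rule. In Stat6-/- 0 of 17 passed, as against 0.355% of all genes, with a median of -0.02. Between genotypes with IL-4, 7 of 17 were higher in Stat6-/-, as were 4.01% of all genes, and 1, Socs1, was lower. Between genotypes in medium 0 of 17 passed, where 1.45% of all genes did. The median there was 0.20 against -0.11 over all genes, with 12 positive and 5 negative.

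Of 7 targets of Irf5, 4 were under the floor on all arrays, Il12a, Il12b, Il23a and Il6, which did not exceed 1.94. Of the 3 above the floor, Il1b fell by 2.60 with IL-4 in wild type, opposite in sign to Irf5. Tnf (0.66) and the chemokine Ccl5 (0.37) did not pass the rule. Ccl5 was lower in Stat6-/- than in wild type in both cultures, by 1.54 with IL-4 and by 1.26 in medium. Among 13 partners and myeloid targets of Irf8, Batf3, a partner of Irf8 in dendritic cells, rose by 1.97 with IL-4 in wild type. It read 4.96 there against 2.99 in medium. Over all genes 304 of 10282 rose in that comparison and 697 fell. Without Stat6, Batf3 was also higher with IL-4, by 0.66, at 3.78 against 3.12, under the rule. Il18, a cytokine of the interleukin-1 family, fell in wild type by at least 1.55-fold to 2.15, under the floor. With signals raised to the floor 1 of 13 passed in wild type, where 278 of 19938 genes rose and 674 fell. Those 19938 include genes under the floor on all arrays, which cannot pass, and 10798 reached it on at least 1 array. The count was also 1 with quantile normalization applied again, where 403 of 10366 genes rose and 488 fell. It was 1 as well with a floor at the 75th percentile, where 213 of 5503 genes rose and 550 fell. Spi1, which encodes PU.1, read 7.87 and 7.66 in Stat6-/- with and without IL-4, and 8.24 and 7.89 in wild type with and without IL-4. The list median was 0.05 in Stat6-/- and -0.06 in wild type, the last turning to 0.09 with quantile normalization applied again. Of 11 cofactors and regulators, Trim21, a ubiquitin ligase of several interferon regulatory factors, fell by 1.16 in wild type and Pias1, a SUMO ligase, fell by 1.06, and 0 of 11 passed in Stat6-/-. With quantile normalization applied again, or with the intensity trend removed, 0 of 11 passed in wild type as well. Over all genes 403 rose and 488 fell of 10366 with the former. With the latter 418 rose and 490 fell of 10282.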

How the data were processed

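RNA of 4 macrophage cultures was measured on Affymetrix whole-transcript arrays. The authors deposited 1 log2 value per probeset and array, made with RMA in Affymetrix Expression Console per the submitters' processing notes; its settings, versions and build are not stated in these sources. The base of the log was read off the size of the values. RMA draws low signals together and so understates their differences. Of 35557 probesets, 21789 had 1 gene symbol, 1621 several and 12147 none in the platform annotation. These gave 19938 genes, each read from its probeset of highest mean. Of 176 entries in 9 pathway and 7 marker lists, 162 matched, 4 of them under another symbol.

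Computed here were log2 differences for 5 comparisons: the IL-4 effect per genotype, the genotype effect per culture, and the difference of IL-4 effects. With 1 array a group no test was made, and genes were called by a rule of size (log2 difference of 1, floor of 2.52). The members, lists and rules were chosen with earlier results of these data known. The rule for naming took the 7 members, Irf4, Stat6, up to 4 genes per list and comparison with the largest differences past the rule, and the 3 profiles nearest to a member past the rule. Not every list gene that met it is named, and some list genes outside it are. The 8 alternatives were a 1.5-fold rule, the mean of a gene's probesets, a lowess fit (fraction 0.3) to take out the intensity trend, a second quantile normalization, a common median for all arrays, no floor, a floor at the 75th percentile, and signals raised to the floor. Python 3.11.15, pandas 2.3.3 and statsmodels 0.14.6 were used. Promoter sequences came from RefSeq, build GRCm38.p6.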

Additional observations from a re-analysis of the deposited data

Results flagged for a closer look

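Several of the genes had IL-4 effects of opposite sign in the 2 genotypes, and with 1 array a group none of these differences was tested. The IL-4 difference of Irf1 was 0.31 in Stat6-/- and -0.38 in wild type, and its genotype difference, Stat6-/- minus wild type, was 0.40 with IL-4 and -0.29 in medium; both come from the same 4 values. Neither change of sign was seen on the second Irf1 probeset, with IL-4 differences of 0.24 in Stat6-/- and 0.22 in wild type and genotype differences of -0.08 with IL-4 and -0.11 in medium. The IL-4 difference of Irf7 was 0.00913 in Stat6-/- and -0.71 in wild type, that of Irf5 was -0.0458 in Stat6-/- and 0.39 in wild type, and that of Irf3 was -0.0315 in Stat6-/- and 0.09 in wild type. The small Stat6-/- values of these 3 genes changed sign over the alternatives, from -0.06 to 0.07 for Irf7, from -0.05 to 0.05 for Irf5 and from -0.03 to 0.01 for Irf3. Irf2 had an IL-4 difference of -0.28 in Stat6-/- and 0.01 in wild type. Irf4, outside the set described here, had one of -0.17 in Stat6-/- and 2.08 in wild type.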

How the results depend on the processing

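The number of interferon regulatory factors past the rule stayed within 1.5 times of the reported value in 36 recalculations and not in 4. Several of the 8 alternatives had little or no room to change that number. All 7 genes lay above the floor on all arrays, so leaving it out or raising signals to it kept their values. The floor at the 75th percentile, 4.65, lay above Irf3 only, which was not called. Averaging probesets touched Irf1 only. With IL-4 in wild type the number past the rule was 0 in place of 1 with the intensity trend removed, since Irf8 came to -0.9999, and 2 with the 1.5-fold rule. With that looser rule it was 3 in place of 1 between Stat6-/- and wild type with IL-4, and 3 in place of 0 for the difference of IL-4 effects. No call of the 7 genes reversed under the 8 alternatives: Irf8 ran from -1.17 to -0.9999 in wild type with IL-4 and from 1.15 to 1.29 between Stat6-/- and wild type with IL-4. Irf1 ran from -0.38 to -0.08 in wild type, the last with its probesets averaged, and its difference of IL-4 effects then was -0.36 in place of -0.69. The signs of Irf2 and Irf9 between Stat6-/- and wild type in medium were not stable, from -0.11 to 0.12 and from -0.01 to 0.22. Of the list counts 325 stayed within that range and 33 did not. The median of the ISGF3 targets between Stat6-/- and wild type with IL-4 was 0.98 with arrays brought to one median. Over all genes the 1.5-fold rule gave 2907 in place of 1001 in wild type, 596 in place of 37 in Stat6-/-, 1114 in place of 149 between genotypes in medium, 2398 in place of 922 with IL-4, and 2830 in place of 969 for the difference of effects, and a floor at the 75th percentile gave 20 in Stat6-/- and 93 between genotypes in medium. Quantile normalization applied again gave an all-gene median of 0.02 in place of -0.11 in wild type and of 0.01 in place of -0.11 between genotypes in medium. Increases then made up 45.2% in place of 30.4% of the calls in wild type, 37.2% in place of 20.8% between genotypes in medium and 47.7% in place of 35.7% for the difference of effects. No paired analysis was possible because each group held 1 array. The single array a group limits the precision of every value.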

Other observations

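Sting1, the adaptor of cytosolic DNA sensing upstream of Irf3, read 6.96 in Stat6-/- with IL-4, 7.48 in medium there, 6.42 in wild type with IL-4 and 6.58 in medium there, and was chosen after its values were seen. It was higher in Stat6-/- than in wild type by 0.90 in medium and by 0.54 with IL-4, both under the 2-fold rule. In medium the difference came to 1.03 with quantile normalization applied again and to 1.05 with the intensity trend removed, past the rule. Zbp1, a nucleic acid sensor of the same list, was 2.53-fold higher in Stat6-/- than in wild type with IL-4, at 6.92 against 5.58. Ciita, the coactivator of MHC class II genes, had an IL-4 difference of 0.03 in Stat6-/- and 0.885 in wild type, under the rule and also chosen after its values were seen.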
